A study of Homo sapiens with 36 samples.

Results

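Levels of 10 genes known as targets of the tumour suppressor p53 were followed in leukemia cells. In these cells LMO2 was targeted for breakdown, or TAL1 or LDB1 was knocked down in part. The 3 proteins work together in a blood transcription complex. The genes were taken by symbol: MDM2, GADD45A, GADD45B, SESN1, ZMAT3, BTG2, FAS, RRM2B, TP53INP1 and AEN. All 10 stand in the FPKM table of the K562 LMO2 degron set (60642 genes) and in the count table of HEL cells (57820 genes), and 9 stand in the TPM table of K562 LDB1 knockdown (13707 genes), which does not list FAS. In the degron set 9 passed the filter on low values and FAS did not, and in HEL all 10 were tested. The count table gives their Ensembl IDs: ENSG00000135679 for MDM2, ENSG00000116717 for GADD45A, ENSG00000099860 for GADD45B, ENSG00000080546 for SESN1, ENSG00000172667 for ZMAT3, ENSG00000159388 for BTG2, ENSG00000026103 for FAS, ENSG00000048392 for RRM2B, ENSG00000164938 for TP53INP1 and ENSG00000181026 for AEN.

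p53 is a DNA-binding protein that is stabilised after DNA damage and other stress and then raises genes of cell cycle arrest, repair and death. MDM2, itself a target, is the ubiquitin ligase that returns p53 to a low level, and the remaining genes carry out parts of the response or its aftermath. Several of them also answer to other factors, among them ATF4, FOXO and NF-kB. K562 is a line from chronic myeloid leukemia in blast crisis with erythroid features that lacks working p53, and HEL is an erythroleukemia line. The RNA levels described for K562 are therefore levels in cells where p53 cannot set them.

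The K562 degron set held 24 libraries from 4 lines: LMO2 degron rep 1 and LMO2 degron rep 2, read here as 2 degron lines, then a line labelled LMO2 control and parental cells, together called the control lines. Each line was sampled untreated on day 0 and on days 1 and 4 with dTAGv1, at 750 uM as the labels write the dose, with 2 libraries per line and day (bio rep 1 and bio rep 2). dTAGv1 binds a degron tag and recruits a ubiquitin ligase, so that the tagged protein is broken down; all 4 lines received it. The sources used here do not say whether a degron line is 1 clone or what was put into the LMO2 control line. The HEL set held 3 libraries with TAL1 siPool 1, 3 with TAL1 siPool 2 and 3 with a non-targeting siRNA pool, all delivered by electroporation. The LDB1 set held 1 K562 library with LDB1 shRNA 1, 1 with LDB1 shRNA 2 and 1 with a control shRNA. LMO2 and LDB1 are adaptor proteins with no DNA binding of their own, and TAL1 is their DNA-binding partner.

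Promoter sequence was read from RefSeq (GRCh38.p14), whose table holds 15 windows of 300 bases, 250 before and 50 after a start, for 7 of the 10 genes; GADD45A, RRM2B and TP53INP1 have no entry. Both strands were searched for a 10-letter p53 unit, which p53 reads in pairs, and for adjoining pairs that match it at 18 or more of 20 letters. Such a pair stands in 0.65% of all 34943 promoter windows, and among these genes it stands in windows of MDM2, FAS and AEN. A stricter search, for 2 units matching at every letter and 0 to 13 bases apart, found none in the 15 windows. Over all windows 0.0286% hold such a full site. A single unit stands in 6.64% of all windows, and here in windows of SESN1, FAS and AEN. Some other windows of MDM2, SESN1 and FAS hold no p53 match, and which start these cells use was not tested. Windows of MDM2, SESN1 and AEN are shown so that the p53 letters can be read beside the levels of these genes in cells without working p53. Capitals mark the 20-letter pair in MDM2 and AEN and the single unit in SESN1.
MDM2, chr12:68808767-68809066, plus strand: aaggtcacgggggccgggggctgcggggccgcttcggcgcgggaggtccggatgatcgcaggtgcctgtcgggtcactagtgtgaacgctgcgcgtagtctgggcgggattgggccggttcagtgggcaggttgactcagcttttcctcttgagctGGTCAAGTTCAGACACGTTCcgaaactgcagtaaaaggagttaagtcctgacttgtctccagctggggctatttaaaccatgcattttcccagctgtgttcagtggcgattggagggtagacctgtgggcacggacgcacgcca
SESN1, chr6:109008939-109009238, minus strand: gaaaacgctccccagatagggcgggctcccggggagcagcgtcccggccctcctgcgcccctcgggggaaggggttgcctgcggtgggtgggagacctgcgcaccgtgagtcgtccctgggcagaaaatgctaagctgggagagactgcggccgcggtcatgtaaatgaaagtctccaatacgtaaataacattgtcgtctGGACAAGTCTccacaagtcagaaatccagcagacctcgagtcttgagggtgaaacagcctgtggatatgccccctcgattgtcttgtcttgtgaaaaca
AEN, chr15:88621090-88621389, plus strand: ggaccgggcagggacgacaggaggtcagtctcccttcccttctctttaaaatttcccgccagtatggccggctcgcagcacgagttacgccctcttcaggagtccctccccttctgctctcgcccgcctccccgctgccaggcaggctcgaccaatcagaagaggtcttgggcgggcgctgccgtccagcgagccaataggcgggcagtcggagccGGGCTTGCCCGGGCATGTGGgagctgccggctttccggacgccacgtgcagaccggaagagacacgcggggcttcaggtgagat
The MDM2 window belongs to the internal start of the gene, known as its p53-responsive promoter, and the pair begins at position -94 from that start. The SESN1 unit begins at position -49 and the AEN pair at position -34. A further match of the joined motif of the TAL1 complex, CANNTG followed by GATA 7 to 9 bases on, stands in 1.26% of all windows and in none of the 15. AGATAA and its 3 variants with T first or G last, forms of the GATA motif, searched as 1 motif, stand in 25.0% of all windows. Here they stand in the SESN1 window shown. CACGTG stands in 7.23% of all windows and here in those of GADD45B and AEN. TGTTTAC, a FOXO-type motif, and TGACGTCA stand in 3.42% and 1.84% of all windows and in none of these. A match is only a run of letters, and no binding was measured.

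Depth was 17.2 M to 26.3 M reads per K562 degron library, recovered from the FPKM values, and 15.9 M to 27 M counts per HEL library; that of the LDB1 libraries is unknown. The knockdowns were visible in their target RNA: TAL1 stood at 162, 190 and 182 CPM with siPool 1 and at 177, 193 and 200 CPM with siPool 2, against 432, 470 and 490 CPM with the non-targeting pool. LDB1 stood at 62.4 and 69.6 TPM with the LDB1 shRNAs, against 468 TPM with the control shRNA. A degron acts on protein, so LMO2 RNA does not check it, and the values used here hold no protein level. Of 6 erythroid markers, 3 fell in the degron lines by day 4, 4 fell in HEL and 4 fell past 2-fold with LDB1 shRNAs. In the degron lines GATA1 was already lower on day 0, and the fall of KLF1 was already called on day 1. The summed level of the 6 markers on day 0 was 524 to 713 FPKM in the degron lines, against 556 to 917 FPKM in the control lines. On day 4 the sum was 249.9 to 284 FPKM in the degron lines, against 632 to 932 FPKM in the control lines. It was 2566 to 2989 CPM with siPool 1 and 3073 to 3457 CPM with siPool 2, against 4518 to 4585 CPM with the non-targeting pool, and 1856 and 2365 TPM with LDB1 shRNAs, against 5369 TPM with the control shRNA. Of 6 monocyte markers 2 could be tested in K562, ITGAM and LYZ; both were already higher in the degron lines on day 0 and rose further by day 4. The sum of the list was 26.4 to 37.2 FPKM in the degron lines, against 5.12 to 14.7 FPKM in the control lines, on day 0, and 92.8 to 117 FPKM, against 7.26 to 17.5 FPKM, on day 4. In HEL 3 of 4 tested monocyte markers were higher with siPool 1 and none with siPool 2, with sums of 56.8 to 62.7 CPM with siPool 1 and 34.9 to 37.1 CPM with siPool 2, against 33.9 to 35.96 CPM with the non-targeting pool. With LDB1 shRNAs ITGAM was past 2-fold upward, and the 3 monocyte markers listed summed to 106 and 96.2 TPM, against 51.9 TPM with the control shRNA. CD14 stayed at 0.326 FPKM or less and CSF1R at 0.152 FPKM or less in all 24 libraries. Of 2 lymphoid markers tested in K562, CD3D was higher in the degron lines on day 0 and fell by day 4, with list sums of 50.5 to 105 FPKM, against 9.20 to 20.5 FPKM in the control lines, on day 0, and 22.9 to 46.8 FPKM, against 10.4 to 31.4 FPKM, on day 4; MS4A1 was at 0 throughout. CD3D was also past 2-fold upward with LDB1 shRNAs, at 174 and 185 TPM, against 27.5 TPM with the control shRNA. The 1 fibroblast marker tested, COL1A1, was not called in the degron set, and it was past 2-fold upward with LDB1 shRNAs, at 8.38 and 9.21 TPM, against 2.83 TPM. The part of these markers' changes in the results was not tested, and in bulk RNA fewer cells of a type and less RNA per cell cannot be told apart.

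By day 4 of dTAGv1, the LMO2 degron lines had changed to lower GADD45A and higher SESN1 and ZMAT3, beyond any change in the control lines. Such a degron-specific change takes the day 0 to day 4 difference averaged over the 2 degron lines and subtracts the same average for the 2 control lines, on the log2(FPKM + 1) scale, which understates changes of low genes. Genes are named as called where limma without a replicate block, adjusted by Benjamini-Hochberg over 15348 genes, gave a p under 0.05. Results of a fit with bio rep as a block are marked as such. That fit takes up the deviation shared by libraries of equal number. Of the 9 tested genes 2 rose and 1 fell, beside 19.8% of all genes called in either direction (11.6% higher and 8.18% lower). The median change of the 9 was 0.32, against 0.06 over all genes. Estimates ranged from -1.37 for GADD45A to 1.04 for TP53INP1.

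GADD45A, a small stress protein that binds PCNA, CDK1 and the kinase MAP3K4, was the most abundant of the 10 per length on day 0. In degron line 1 its level was 79.8 and 71 FPKM on day 0, 71.3 and 53.5 FPKM on day 1, and 28.5 and 27.8 FPKM on day 4. In degron line 2 it was 61.5 and 64.3, 62.8 and 39.6, and 24.6 and 27.2 FPKM on the same days. The LMO2 control line had 66 and 66.1, 76.5 and 60.6, and 69.9 and 56.5 FPKM, and parental cells 75.3 and 63.3, 86.1 and 85, and 87.4 and 69.8 FPKM. The 4 day 4 degron libraries lay far below the lowest day 4 control library, at 56.5 FPKM, and on day 0 the lines overlapped. The degron-specific change of GADD45A was -1.37 ± 0.20 on day 4 (SE; limma adjusted p = 0.000304). In line 1 alone the change from day 0 was -1.39 ± 0.20 and in line 2 alone -1.25 ± 0.20, while it was -0.07 ± 0.20 in the LMO2 control line and 0.18 ± 0.20 in parental cells.

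GADD45B, the sister gene best known as a target of NF-kB and TGF-beta signals, did not follow GADD45A. It was low, between 0.732 and 3.23 FPKM over the 24 libraries, which is 34 to 154 reads. Its day 4 change was 0.28 ± 0.28 and did not pass (limma adjusted p = 0.527). Within bio rep 1 that change was 0.69 and within bio rep 2 it was -0.13, so the replicates differed in sign.

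SESN1, a sestrin that restrains mTORC1 by binding GATOR2, rose in both degron lines. Of its promoter windows, only the window shown holds a 10-letter p53 unit. Line 1 had 4.93 and 4.15 FPKM on day 0, 4.84 and 5.21 FPKM on day 1, and 8.68 and 7.35 FPKM on day 4. Line 2 had 5.12 and 4.82, 6.23 and 6.03, and 10.3 and 11.3 FPKM on the same days. The 12 control-line libraries lay between 3.82 and 5.10 FPKM on all days, with a median of 4.30 FPKM. Every day 4 degron library therefore stood above every control library. The degron-specific change of SESN1 was 0.70 ± 0.12 (SE; limma adjusted p = 0.00114), with 0.70 within bio rep 1 and 0.69 within bio rep 2.

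ZMAT3, a zinc-finger protein that binds RNA and affects its splicing and stability, also rose. Line 1 had 1.93 and 2.25 FPKM on day 0, 3.18 and 2.94 FPKM on day 1, and 5.5 and 5.2 FPKM on day 4. Line 2 had 2.01 and 2.28, 3.66 and 4.03, and 6.19 and 7.02 FPKM on the same days. Control-line libraries lay between 0.914 and 1.96 FPKM over all days, with a median of 1.55 FPKM. Before dTAGv1, on day 0, each degron library was already above each control library of that day, which had 0.918 to 1.85 FPKM. The same held on day 1, with a change of 0.54 ± 0.19 that did not pass (limma adjusted p = 0.449). On day 4 the change of 1.02 ± 0.19 passed (limma adjusted p = 0.00186). The day 4 change of ZMAT3 was 1.04 ± 0.19 in line 1 and 1.27 ± 0.19 in line 2, before the control change is taken off, and the difference between the lines was not called (0.23 ± 0.27, limma adjusted p = 1).

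**Figure D1:**
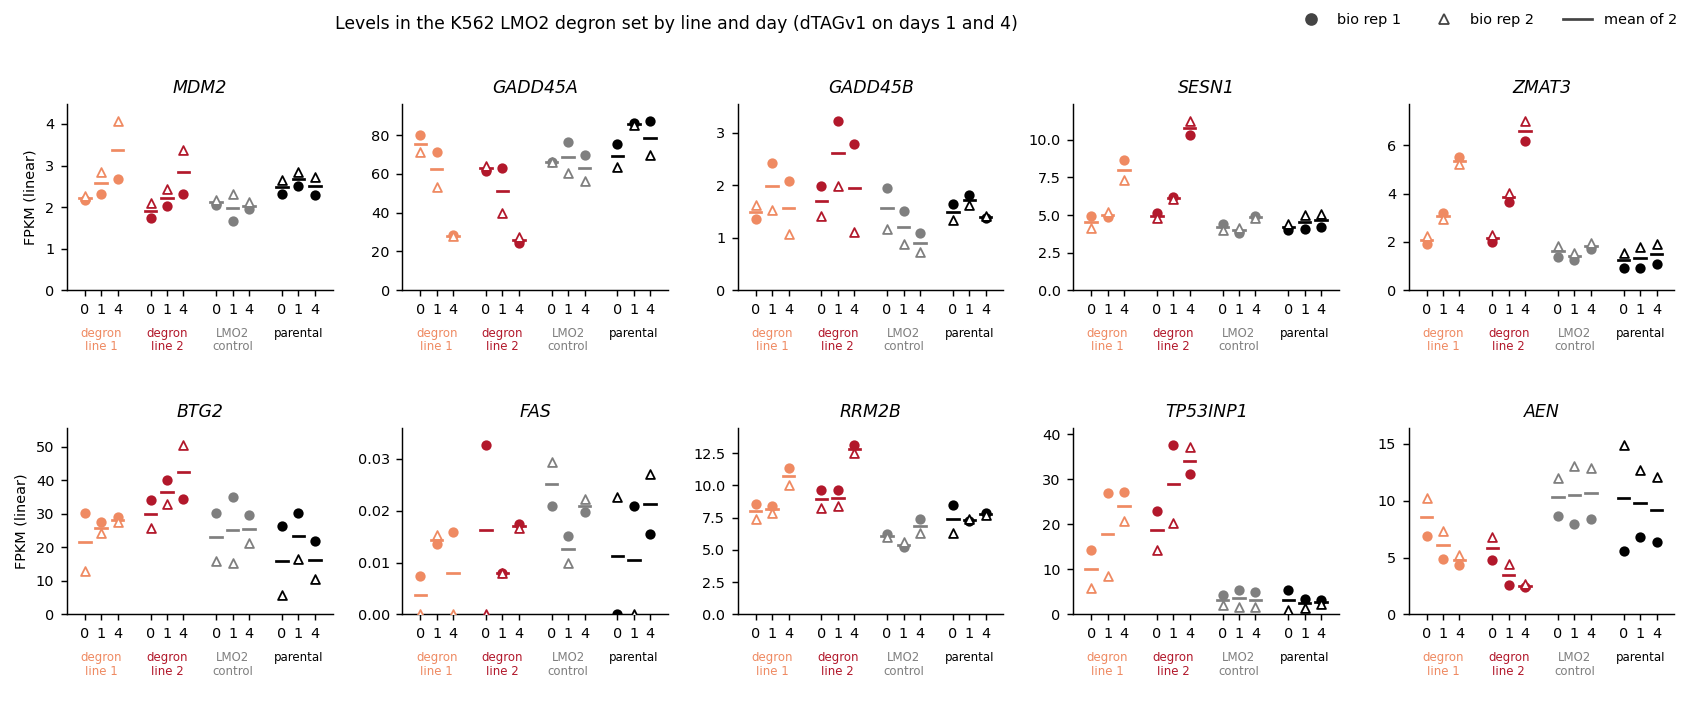
FPKM of each of the 10 genes (linear vertical axes, 1 scale per gene) in degron line 1, degron line 2, the LMO2 control line and parental cells on days 0, 1 and 4; circles are bio rep 1, triangles bio rep 2 and bars the mean of 2. GADD45A drops to 24.6 to 28.5 FPKM in the day 4 degron libraries, SESN1 and ZMAT3 climb there, and FAS stays at or under 0.0327 FPKM.

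MDM2 did not pass on day 4, although the mean of each degron line was higher on day 4 than on day 0. Degron line 1 had 2.18 and 2.27 FPKM on day 0, 2.31 and 2.84 FPKM on day 1, and 2.68 and 4.08 FPKM on day 4. Degron line 2 had 1.73 and 2.1, 2.02 and 2.43, and 2.33 and 3.37 FPKM. Control-line libraries on day 4 had 1.96 to 2.72 FPKM, so the groups overlapped. MDM2 was higher in bio rep 2 than in bio rep 1 in all 12 line-by-day groups, by 0.20 on average on the log2 scale. Its change of 0.42 ± 0.17 did not pass (limma adjusted p = 0.101), and with bio rep as a block it did (limma adjusted p = 0.00879). Without bio rep 1 of degron line 1 on day 4 it passed too, at 0.54 (limma adjusted p = 0.0398).

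BTG2, an antiproliferative protein that brings the CCR4-NOT deadenylase to RNA, spanned 5.79 to 50.6 FPKM. It was higher in bio rep 1 than in bio rep 2 in 11 of 12 groups, with a mean difference of -0.65 (bio rep 2 minus bio rep 1, log2). Against that spread its day 4 change of 0.26 ± 0.58 was small (limma adjusted p = 0.801). BTG2 was not called with the block either (limma adjusted p = 0.660).

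RRM2B, the p53-inducible small subunit of ribonucleotide reductase, was higher in the degron lines from the start, and its later change was called in some fits only. Line 1 had 8.57 and 7.39 FPKM on day 0 and 11.4 and 10.1 FPKM on day 4, and line 2 had 9.62 and 8.23 FPKM and then 13.1 and 12.5 FPKM. Control-line libraries had 5.97 to 8.49 FPKM on day 0 and 6.34 to 7.85 FPKM on day 4. The groups overlapped on day 0 and no longer did on day 4. The degron-specific change of 0.32 ± 0.13 did not pass (limma adjusted p = 0.0991); it passed with the block (limma adjusted p = 0.0208) and, at 0.42, without bio rep 2 of parental cells on day 0 (limma adjusted p = 0.0254).

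TP53INP1, a stress protein that takes part in p53 phosphorylation complexes and in autophagy, had the largest day 0 difference of the 9. Degron line 1 had 14.2 and 5.81 FPKM on day 0, 26.9 and 8.63 FPKM on day 1, and 27.2 and 20.8 FPKM on day 4. Degron line 2 had 22.9 and 14.4, 37.7 and 20.3, and 31.1 and 37.2 FPKM on the same days. Control-line libraries had 0.926 to 5.51 FPKM over all days, with a median of 2.78 FPKM. No degron library on any day overlapped the control lines, while within degron line 1 on day 1 the bio reps lay as far apart as 26.9 and 8.63 FPKM. TP53INP1 was higher in bio rep 1 in 11 of 12 groups, and its day 4 change of 1.04 ± 0.66 did not pass (limma adjusted p = 0.296) except with the block (limma adjusted p = 0.0308).

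AEN, a nuclease that p53 induces in dying cells and whose promoter holds the 20-letter pair, had estimates below 0 on each day. Degron line 1 had 6.93 and 10.2 FPKM on day 0 and 4.3 and 5.25 FPKM on day 4. Degron line 2 had 4.8 and 6.81 FPKM on day 0 and 2.41 and 2.66 FPKM on day 4. In the control lines AEN was 6.33 to 12.9 FPKM on day 4, above every day 4 degron library. AEN was higher in bio rep 2 in all 12 groups, by 0.58 on average on the log2 scale. The change of -0.80 ± 0.42 did not pass (limma adjusted p = 0.1995), and it passed with the block (limma adjusted p = 0.00615) and, at -1.12, without bio rep 2 of parental cells on day 0 (limma adjusted p = 0.0496).

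FAS, the death receptor that binds FAS ligand, was close to silent in K562. It was read 0 to 4 times per library, at 0 to 0.0327 FPKM, in degron and control lines alike, too few for a test or a fold. A promoter window of FAS holds a 20-letter p53 pair, and its other windows do not.

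With the block the day 4 count was 5 higher and 2 lower of 9, beside 35.6% of all genes called (20.1% higher and 15.6% lower). The block changed no sign. On day 1 none of the 9 was called, beside 0.0782% of all genes (1.09% with the block); GADD45A (-0.48 ± 0.20) and ZMAT3 had an unadjusted p under 0.05, and edgeR on the recovered reads and the block called none. In the control lines no gene at all was called between days 0 and 4 in limma, 0.0% of 15348, and none of the 9 had an unadjusted p under 0.05. None of the 9 was called for a difference in day 4 change between the degron lines, beside 0.013% of all genes called (0.0261% with the block), and none had an unadjusted p under 0.05. GADD45A, SESN1 and ZMAT3 were called in each of 24 fits that left out 1 library.

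**Figure D2:**
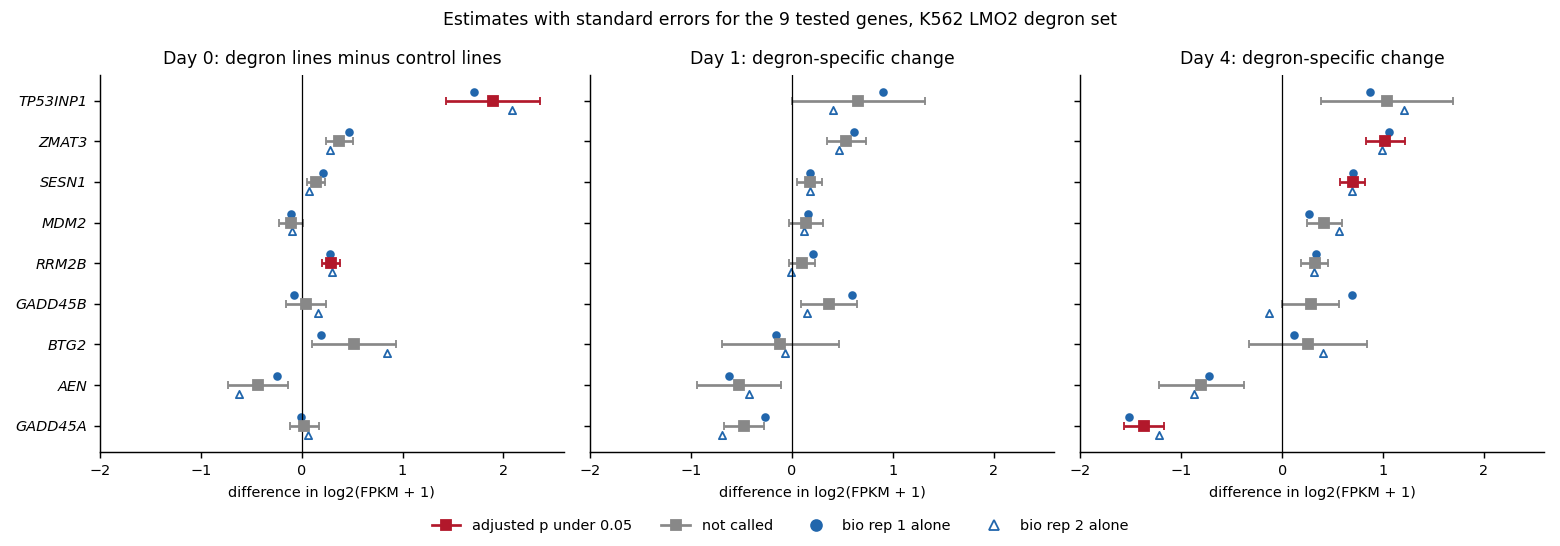
Differences in log2(FPKM + 1) for the 9 tested genes: degron lines minus control lines on day 0 (left), and the degron-specific change on day 1 (middle) and day 4 (right). Squares with bars are estimates with SE, red where the adjusted p was under 0.05, and the circle and triangle beside each are bio rep 1 and bio rep 2 alone. TP53INP1 is at 1.90 on day 0, and on day 4 ZMAT3 is at 1.02, SESN1 at 0.70 and GADD45A at -1.37.

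Before any dTAGv1, 2 of the 9 genes were already higher in the degron lines and none lower, beside 16.8% of all genes called (10.6% higher and 6.14% lower). TP53INP1 was higher by 1.90 ± 0.46 (SE; limma adjusted p = 0.0105), with 5.81 to 22.9 FPKM in the degron lines, against 0.926 to 5.36 FPKM in the control lines. Without bio rep 1 of degron line 1 on day 0 it was 1.61 and not called (limma adjusted p = 0.0573), nor was it with the LMO2 control line as the only control (0.0568) or with degron line 1 alone (0.157). RRM2B was higher by 0.29 ± 0.09 (limma adjusted p = 0.0420), a call that was lost in 13 of 24 fits that left out 1 library. Those libraries were bio rep 1 and bio rep 2 of the LMO2 control line on day 0, of parental cells on days 1 and 4, of degron line 1 on day 1 and of degron line 2 on day 4, bio rep 1 of each degron line on day 0, and bio rep 2 of parental cells on day 0, with an adjusted p of 0.0504 to 0.166. RRM2B was not called either with no filter on low FPKM (0.0697), in edgeR on the recovered reads (0.0628), with degron line 1 alone (0.310) or with parental cells as the only control (0.362). ZMAT3 was 0.38 ± 0.14 higher and not called (limma adjusted p = 0.0727); without bio rep 2 of parental cells on day 0, or either bio rep of parental cells on day 1, its adjusted p was 0.0343 to 0.0448. With the block ZMAT3 was higher too (limma adjusted p = 0.0105) and AEN was lower, at -0.43 (limma adjusted p = 0.0301), giving 3 higher and 1 lower, beside 30.8% of all genes called (17.9% higher and 12.9% lower). GADD45A differed by 0.03 ± 0.14 and SESN1 by 0.14 ± 0.09 on day 0, neither called. The comparison sets 2 degron lines against 2 control lines, and its error comes from the libraries within each line and day. Its p-values therefore do not measure the spread between lines. The tag, the history of each line and the LMO2 level before treatment cannot be told apart in this comparison.

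Related genes were read from lists, and each day 4 count below stands beside 19.8% of all genes called (11.6% higher and 8.18% lower). Of 16 tested genes in a list of other p53-linked arrest, repair and metabolism genes, 1 rose and 1 fell by day 4, with a median of 0.05. CDKN1A, the CDK inhibitor p21, rose by 1.37 ± 0.35 (SE; limma adjusted p = 0.0123), with 15.8 and 20 FPKM in degron line 1 and 12.7 and 27.9 FPKM in degron line 2 on day 4, against 1.5 to 4.22 FPKM in the control lines. Without the LMO2 control line, with parental cells as the only control, it was 1.07 and not called (limma adjusted p = 0.123). TP53I11 fell by 0.78 (limma adjusted p = 0.0240). It lost the call without bio rep 1 of degron line 1 or bio rep 2 of degron line 2, the LMO2 control line or parental cells, all on day 4, at an adjusted p of 0.0536 to 0.0631.

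Of 7 tested p53-linked death genes, PMAIP1 (NOXA, a BH3-only protein) rose and TNFRSF10A, a TRAIL receptor, fell. PMAIP1 had 35.1 and 34 FPKM in degron line 1 and 60.9 and 89.8 FPKM in degron line 2 on day 4, against 10.8 to 13.6 FPKM in the control lines, a change of 1.49 ± 0.19 (limma adjusted p = 0.000124). TNFRSF10A changed by -0.91 ± 0.18 (limma adjusted p = 0.00303). The median of the list was -0.03.

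Of 8 tested genes of the p53 family, its regulators and damage kinases, 1 rose and 2 fell. TP73, a transcription factor of the same family, rose by 0.84 ± 0.25 (limma adjusted p = 0.0273). Its level on day 4 was 6.26 and 7.24 FPKM in degron line 1 and 3.42 and 6.08 FPKM in degron line 2, against 1.21 to 1.59 FPKM in the control lines. The TP73 call was lost without any 1 of 8 libraries: bio rep 1 of each degron line, the LMO2 control line and parental cells on day 0, bio rep 2 of each degron line and the LMO2 control line on day 4, and bio rep 1 of parental cells on day 4; adjusted p was 0.0506 to 0.0731. TP73 was not called either with no filter on low FPKM (0.0627) or in edgeR on the recovered reads (0.0518). CHEK1, the replication checkpoint kinase, fell by 0.74 (limma adjusted p = 0.00236) and CHEK2 by 0.40 (limma adjusted p = 0.0219). The CHEK2 call was lost without bio rep 1 of degron line 1 on day 0, or bio rep 2 of degron line 2 or parental cells on day 4, at an adjusted p of 0.0528 to 0.0571.

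Among 5 tested GADD45 partners and family members none rose and 3 fell, with a median of -1.01. They were CCNB1 at -1.14 ± 0.17 (limma adjusted p = 0.000361) and CDK1 at -1.10 ± 0.22 (limma adjusted p = 0.00310), the cyclin and kinase of mitotic entry, and PCNA, the replication clamp, at -1.01 ± 0.28 (limma adjusted p = 0.0200). PCNA lost the call without bio rep 1 of degron line 1 on day 4, bio rep 2 of degron line 1 on day 0, bio rep 1 of the LMO2 control line on day 0, or bio rep 2 of either control line on day 4, at an adjusted p of 0.0501 to 0.0555. CCNB1 on day 4 had 56.2 and 75.7 FPKM in degron line 1 and 38.2 and 40.9 FPKM in degron line 2, against 108 to 134 FPKM in the control lines. Of 2 ribonucleotide reductase partners, RRM1, the large subunit that pairs with RRM2B, fell by 0.88 ± 0.14 (limma adjusted p = 0.000503).

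In the sestrin and GATOR list 1 of 9 tested genes was called, NPRL3 of GATOR1, which fell by 0.81 ± 0.20 (limma adjusted p = 0.0117). The BTG and TOB list had 2 rises of 6, TOB1 by 1.14 ± 0.19 (limma adjusted p = 0.000920) and TOB2 by 0.52 ± 0.13 (limma adjusted p = 0.0107), both adaptors of the same deadenylase as BTG2. TOB1 reached 28.7 and 38.3 FPKM in degron line 1 and 35 and 49.8 FPKM in degron line 2 on day 4, against 12.2 to 13.8 FPKM in the control lines. Of 4 tested FAS partners, CASP10, an initiator caspase, rose by 0.66 ± 0.14 (limma adjusted p = 0.00390) and CFLAR, its inhibitor, by 0.62 ± 0.18 (limma adjusted p = 0.0219). CFLAR lost the call without bio rep 1 of degron line 2, or bio rep 2 of the LMO2 control line or parental cells, all on day 4, at an adjusted p of 0.0514 to 0.0573.

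Lists of other factors known to act on these genes were read beside the same 19.8% of all genes called on day 4. Of 7 genes of the ATF4 and CHOP list none rose and TRIB3, a pseudokinase, fell by 0.95 ± 0.25 (limma adjusted p = 0.0142), with a list median of -0.71. Neither of 2 tested FOXO factors was called. Of 4 tested NF-kB feedback genes TNFAIP3, the A20 inhibitor, rose by 1.56 ± 0.13 (limma adjusted p = 3.53e-06), with 10.1 to 12.8 FPKM in the day 4 degron libraries, against 1.85 to 3.69 FPKM in the day 4 control libraries. On day 1 none of these genes was called in limma. Several list calls depended on the lines used: with the LMO2 control line as the only control CHEK2, TP53I11, TP73, PCNA, NPRL3, TOB2, CFLAR and TRIB3 were not called (limma adjusted p = 0.0573 to 0.115). With parental cells as the only control CDKN1A, TP53I11, CHEK2, TP73, PCNA and CFLAR were not (0.0629 to 0.123). With degron line 1 alone CDKN1A, TP53I11, CHEK2, TP73, PCNA, NPRL3, TOB2 and CFLAR were not (0.0542 to 0.329), and with degron line 2 alone TP53I11, TP73, CFLAR and TRIB3 were not (0.0651 to 0.162).

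Several list genes already differed between the lines on day 0, before dTAGv1, beside the 16.8% of all genes called there. Of the 16 tested arrest, repair and metabolism genes CDKN1A (1.00 ± 0.25), TP53I11 (0.50 ± 0.16) and GDF15, a stress cytokine (1.27 ± 0.37), were higher in the degron lines. CDKN1A had 7.11 and 5.47 FPKM in degron line 1 and 3.58 and 3.43 FPKM in degron line 2 on day 0, against 1.37 to 2.84 FPKM in the control lines, so it lay above them before treatment and further above on day 4. TP53I11 was thus higher at the start, and its fall by day 4 ran against that difference. Of the 7 death genes PMAIP1 was higher (0.47 ± 0.14) and TNFRSF10A lower (-0.51 ± 0.13), and of the 8 family genes and kinases TP73 was higher (0.65 ± 0.18) and CHEK1 (-0.59 ± 0.10) and CHEK2 (-0.29 ± 0.08) were lower. CASP10 (0.44 ± 0.10) and CFLAR (0.47 ± 0.12) of the 4 FAS partners were higher, as was BTG1 of the 6 BTG and TOB genes (1.03 ± 0.20). RRM1 was lower (-0.32 ± 0.10), and of the 5 GADD45 partners the kinase MAPK14 (p38) was higher (0.27 ± 0.09) and MAP3K4 lower (-0.30 ± 0.09). Each of these day 0 calls had a limma adjusted p of 0.000846 (CHEK1) to 0.0451 (MAPK14), and none was made in the sestrin, ATF4, FOXO or NF-kB lists.

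The day 0 calls of BTG1 and CHEK1 held in all 24 fits that left out 1 library and under all 9 other settings. CASP10 and CDKN1A held without any 1 library, but CASP10 was lost in the fit to degron line 1 alone or against the LMO2 control line alone, and CDKN1A in the fit to degron line 2 alone or against parental cells alone (limma adjusted p = 0.0634 to 0.174). CFLAR, CHEK2, GDF15, MAP3K4, PMAIP1, RRM1, TNFRSF10A and TP73 were each lost in 3 to 7 of the 24 fits, in each case without a day 0 library, and in 2 to 5 of the other settings (limma adjusted p = 0.0511 to 0.423). TP53I11 was lost in 14 of 24 fits and MAPK14 in 20 of 24. TP53I11 held only without a library of degron line 1 or parental cells on day 1 or 4, or of the LMO2 control line on day 1, and MAPK14 only without bio rep 1 of either control line on day 0 or a library of the LMO2 control line on day 1.

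In HEL, none of the 10 genes was called after TAL1 knockdown in edgeR when both siPools were averaged, beside 2.03% of 16688 genes. GADD45B and ZMAT3 had an unadjusted p under 0.05, and DESeq2 called 0 of 10. HEL levels are given as CPM, counts scaled to the library total, which do not correct for gene length. ZMAT3 was at 73.7, 85.2 and 83.3 CPM with siPool 1 and 73, 71.5 and 67.4 CPM with siPool 2, against 61.3, 65.9 and 65.9 CPM with the non-targeting pool. Each TAL1 library was thus above each non-targeting one. The change of ZMAT3 was 0.22 ± 0.08 (edgeR adjusted p = 0.174), and with the replicate number as a block it was called (edgeR adjusted p = 0.0168).

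TP53INP1 was low in HEL. It had 5.88, 9.67 and 10.7 CPM with siPool 1 and 6.07, 12.3 and 19 CPM with siPool 2, against 4.25, 8.81 and 5.35 CPM with the non-targeting pool. Within each replicate number both TAL1 libraries were above the non-targeting one, while over all libraries the groups overlapped. The mean change was 0.75 ± 0.35 (edgeR adjusted p = 0.349), and 0.71 with the block (edgeR adjusted p = 0.00426). With the block the count over both pools was 2 higher and 0 lower, beside 14.6% of all genes called (7.12% higher and 7.48% lower).

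Taken by siPool, none of the 10 was called with siPool 1 (4.22% of all genes) or siPool 2 (1.05%) in edgeR, with 4 and 2 genes at an unadjusted p under 0.05. DESeq2 called ZMAT3 (adjusted p = 0.00981) and RRM2B (adjusted p = 0.0287) with siPool 1 and none with siPool 2. GADD45B had 5.88, 5.01 and 3.41 CPM with siPool 1, 3.82, 3.31 and 3.02 CPM with siPool 2, and 3.22, 3.21 and 2.06 CPM with the non-targeting pool. With the block and siPool 1, GADD45B (0.75, edgeR adjusted p = 0.0136), ZMAT3 (0.33, 0.00177) and RRM2B (0.28, 0.00640) were higher and AEN was lower (-0.22, 0.0421), beside 17.3% of all genes (8.49% higher and 8.81% lower). For siPool 1, ZMAT3 was also called without bio rep 1 of siPool 1 or of siPool 2 (edgeR adjusted p = 0.0340 to 0.0375). With the block and siPool 2, TP53INP1 was higher (0.92, edgeR adjusted p = 0.00171) and MDM2 lower (-0.28, 0.00547), beside 10.2% of all genes (4.97% higher and 5.18% lower).

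The siPools themselves differed in RRM2B. It had 68.9, 66.5 and 66.7 CPM with siPool 2, against 81.2, 88 and 87.3 CPM with siPool 1, and the non-targeting pool had 66.6, 69.4 and 76.4 CPM. The difference, siPool 2 minus siPool 1, was -0.37 ± 0.08 (edgeR adjusted p = 0.0362), the single call among the 10 genes, beside 2.76% of all genes (1.08% higher and 1.68% lower). It was lost without any 1 of 6 libraries, bio rep 2 or bio rep 3 of either siPool or of the non-targeting pool, at an adjusted p of 0.0565 to 0.173. With the block MDM2 differed as well, with 93.5, 84.1 and 83.4 CPM for siPool 2, against 104, 96.7 and 105 CPM for siPool 1 (-0.25, edgeR adjusted p = 0.00955), beside 14.6% of all genes (7.09% higher and 7.48% lower).

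GADD45A and SESN1, which moved in K562, had no called change in HEL. GADD45A had 90.5, 96.9 and 87 CPM with siPool 1 and 87.1, 115 and 118 CPM with siPool 2, against 86, 113 and 111 CPM with the non-targeting pool (-0.07 ± 0.11, edgeR adjusted p = 0.809). SESN1 had 33.8, 34.4 and 36.5 CPM and 37.5, 38.7 and 34.7 CPM, against 34.9, 29.4 and 31.9 CPM (0.16 ± 0.09, edgeR adjusted p = 0.463). Whether the response differs between the lines was not tested, since gene, agent and table all differ. FAS was expressed in HEL, with 84 to 154 counts per library, and did not pass (edgeR adjusted p = 0.969). BTG2 was split by replicate number, at 180, 194 and 167 CPM in bio rep 1 of siPool 1, siPool 2 and the non-targeting pool, and 346 to 440 CPM in the remaining 6 libraries.

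**Figure D3:**
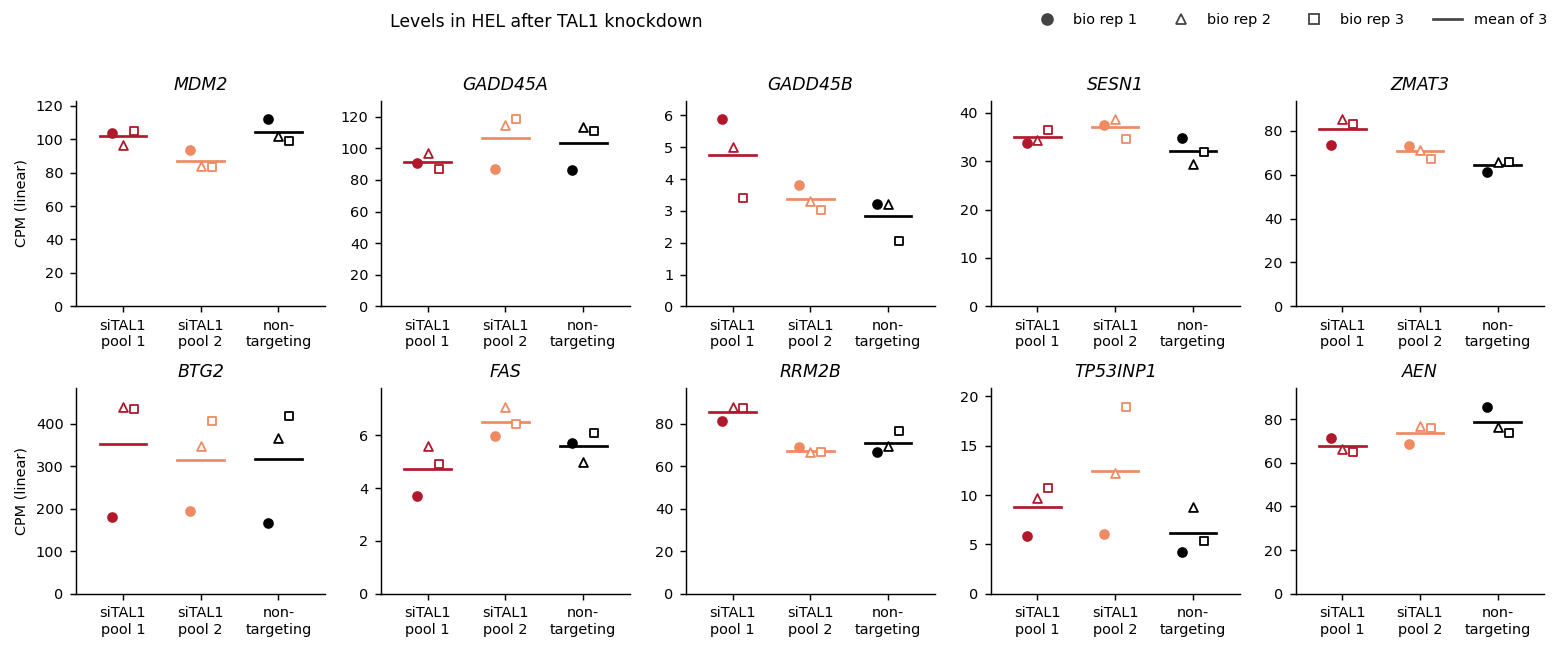
CPM of each gene (linear vertical axes, 1 scale per gene) in HEL cells with TAL1 siPool 1, TAL1 siPool 2 and the non-targeting pool; symbols mark bio rep 1 to 3 and bars the mean of 3. RRM2B separates siPool 1 from siPool 2, BTG2 separates bio rep 1 from the others, and most genes overlap between groups.

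Of the related lists, 1 gene was called over both siPools in HEL, BTG3, an antiproliferative relative of BTG2, which fell by 0.33 ± 0.07 (edgeR adjusted p = 0.0406). The BTG3 call was lost in 7 of 9 fits that left out 1 library, all but those without bio rep 1 of siPool 1 or of siPool 2, at an adjusted p of 0.0721 to 0.207. Among the list genes named for K562, the block added lower CHEK1, CHEK2, PCNA, NPRL3 and RRM1 and higher TOB2, CASP10, CFLAR and TNFAIP3, with changes of -0.35 to 0.43. With the block 14.6% of all genes were called (7.12% higher and 7.48% lower). The genes looked at were those called in K562, and whether HEL shares their changes more often than other genes was not tested. Over both siPools, CHEK1 was also called without bio rep 1 of siPool 1 or of siPool 2 (edgeR adjusted p = 0.0335 to 0.0368). CFLAR was called without bio rep 1 of siPool 1 (edgeR adjusted p = 0.0433) and TNFAIP3 without bio rep 1 of siPool 2 (edgeR adjusted p = 0.0425).

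By siPool, the lists gave calls that differed between the pools, beside 4.22% of all genes called with siPool 1, 1.05% with siPool 2 and 2.76% between them. SESN3, a sestrin that restrains mTORC1 like SESN1, had 24.9, 30.3 and 36.5 CPM with siPool 1 and 18.3, 19.7 and 20.2 CPM with siPool 2, against 15.3, 20.5 and 18.5 CPM with the non-targeting pool. It was higher with siPool 1 (0.76 ± 0.14, edgeR adjusted p = 0.0101) and differed between the siPools (siPool 2 minus siPool 1, -0.68 ± 0.14, edgeR adjusted p = 0.0252). CHEK1 was lower with siPool 1 (-0.52 ± 0.10, edgeR adjusted p = 0.0110) and CFLAR higher (0.38 ± 0.10, edgeR adjusted p = 0.0431), and BTG3 was lower with siPool 2 (-0.40 ± 0.09, edgeR adjusted p = 0.0456). CDKN1A had 8.43, 9.73 and 9.33 CPM with siPool 2, against 4.69, 4.04 and 4.83 CPM with siPool 1, a difference of 0.99 ± 0.19 (edgeR adjusted p = 0.0139), and the non-targeting pool had 4.03, 5.77 and 6.12 CPM.

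Leaving out 1 library ended each of these calls in some fits. With siPool 1, SESN3 was lost without bio rep 3 of siPool 1 (edgeR adjusted p = 0.0562). CHEK1 was lost without bio rep 2 or 3 of siPool 1 or bio rep 3 of the non-targeting pool (0.0506 to 0.0622), and CFLAR without any 1 of the non-targeting libraries, bio rep 2 or 3 of siPool 1 or bio rep 2 of siPool 2 (0.0773 to 0.174). The BTG3 call with siPool 2 was lost in 7 of 9 fits, all but those without bio rep 1 of either siPool (0.0639 to 0.238). The differences of CDKN1A (0.0553 to 0.0817) and SESN3 (0.0879 to 0.123) between the siPools were lost without bio rep 2 or 3 of either siPool.

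With LDB1 shRNAs in K562, TP53INP1 was the 1 gene of the 9 listed that passed 2-fold in both libraries, beside 11.2% of the 12445 genes at 5 TPM or more (8.94% higher). There was 1 library per group, so these are values without a replicate check. TP53INP1 stood at 107 TPM with each of LDB1 shRNA 1 and LDB1 shRNA 2, against 22.3 TPM with the control shRNA. The log2 ratios of (TPM + 1) were 2.22 and 2.21, and the median ratio over all genes was itself 0.18 and 0.13, so relative to that shift they were 2.03 and 2.08. ZMAT3 stood at 15.8 and 12.8 TPM, against 7.27 TPM with the control shRNA, or 0.84 and 0.60 relative to the shift. GADD45B stood at 16 and 16 TPM, against 8.53 TPM, or 0.65 and 0.70 relative to the shift. ZMAT3 and GADD45B were past 1.5-fold in both libraries and under 2-fold in at least 1. At 1.5-fold the count over all genes was higher as well, as the closing section gives.

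SESN1 ran lower with LDB1 shRNAs, at 7.73 and 6.91 TPM, against 10.6 TPM with the control shRNA (-0.59 and -0.68 relative to the shift). In the degron lines SESN1 had risen; the sets share neither agent nor table, and the difference was not tested. GADD45A was the most abundant gene here too, at 332 and 368 TPM, against 344 TPM with the control shRNA. Its ratios were -0.05 and 0.10 as computed and -0.23 and -0.04 relative to the shift, so the sign for LDB1 shRNA 2 flips with the centring. MDM2 (12.1 and 12.5 TPM, against 9.29 TPM), BTG2 (143 and 152 TPM, against 109 TPM) and RRM2B (24.7 and 22 TPM, against 17.2 TPM) had ratios of 0.17 to 0.35 relative to the shift. AEN stood at 18.4 and 16.8 TPM, against 19.8 TPM, or -0.28 and -0.36 relative to the shift.

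In the list of other p53-linked arrest genes 3 of 16 were past 2-fold upward and 1 downward, and in the list of death genes 2 of 8 were upward. Of all genes at 5 TPM or more, 8.94% were past 2-fold upward and 2.21% downward. The list totals also hold genes under 5 TPM, which could not be counted. Among them TP53I11 (1.33 and 1.29), PERP (1.69 and 1.28) and RELB of the NF-kB list (1.63 and 1.54) had log2 ratios past 2-fold upward. The list genes were chosen for naming after their values were seen. CDKN1A stood at 139 and 141 TPM with LDB1 shRNAs, against 7.16 TPM with the control shRNA. PMAIP1 stood at 140 and 126 TPM, against 40.4 TPM, and SESN2, the stress-responsive sestrin, at 206 and 188 TPM, against 82.7 TPM. PHLDA3, an AKT inhibitor, and TNFRSF10B, a TRAIL receptor, were the others counted upward in the arrest and death lists. TRIAP1, a mitochondrial lipid-transfer partner, was downward at 16.4 and 14.5 TPM, against 47 TPM. Lists of other factors and partners held rises too: CASP8 of 4 FAS partners, FOXO4 of 2 FOXO factors and TNFAIP3 of 5 NF-kB feedback genes were past 2-fold upward.

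**Figure D4:**
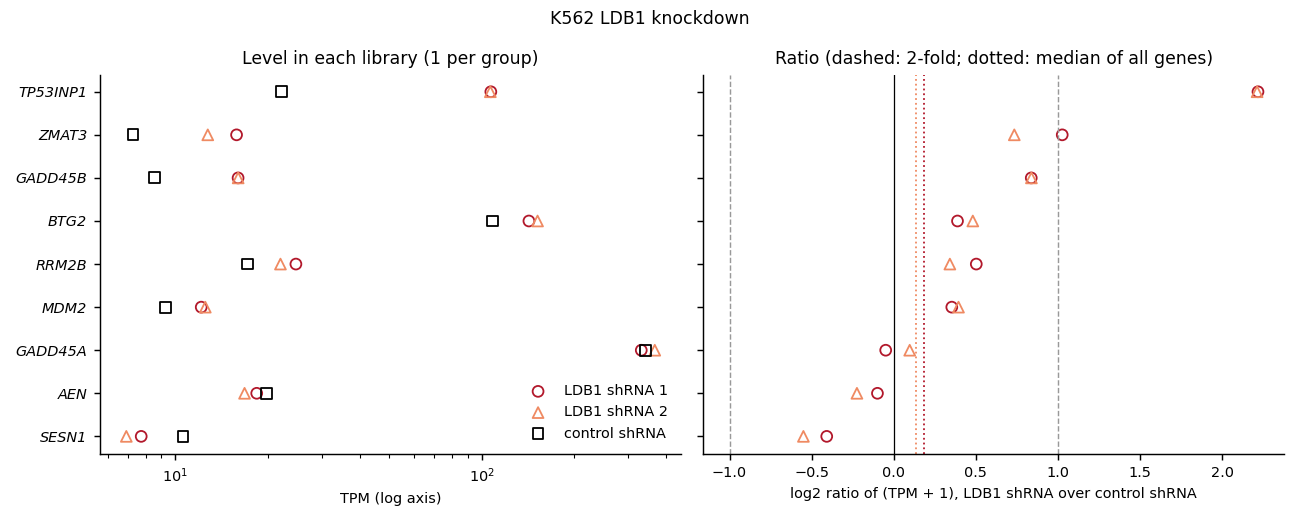
Left, TPM on a log axis for 9 genes in 1 library each of LDB1 shRNA 1, LDB1 shRNA 2 and the control shRNA; right, the log2 ratio of (TPM + 1) of each LDB1 shRNA over the control shRNA, with dashed lines at 2-fold and dotted lines at the median of all genes. TP53INP1 lies at 2.22 and 2.21, ZMAT3 and GADD45B at 0.73 to 1.03, and SESN1 at -0.41 and -0.55.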

How the data were processed

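RNA was sequenced in 36 libraries, grouped by their labels. The K562 degron values are FPKM that the authors deposited, scaled to gene length and library size. The HEL values are raw read counts that the authors deposited, and the LDB1 values are TPM that the authors deposited. Per the submitters' processing notes FastQC, STAR, featureCounts and the build hg19 were used; versions, annotation and strand setting are not given in the sources used here, so antisense reads may be mixed into a gene's value. No test crosses tables, since the K562 and HEL sets had other library providers, per the labels' protocols.

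FPKM were taken as log2(FPKM + 1); genes reaching 1 FPKM in 2 or more libraries (15348) entered a fit in limma 3.58.1 (R 4.3.3, trend and robust settings) with 12 line-by-day groups. For HEL the test was edgeR 4.0.16 with TMM, filterByExpr and its quasi-likelihood fit, with DESeq2 1.42.0 as an alternative. The SE of an edgeR change is its size over the square root of its F value, and CPM use the library total. TPM of 1 library per group gave ratios only. Whole reads came back from the FPKM of all 40929 genes detected (within 0.03 reads), and edgeR on them was added after seeing the data. Both fits were tested on simulated data.

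The labels number the libraries within groups without saying what a number shares. Libraries of equal number deviated together from their group means. In K562, 132 pairs of libraries had r = 0.119 to 0.662, with a median of 0.377. With 2 libraries per K562 group the deviations mirror each other, so each r there enters for both numbers. In HEL, 9 pairs of libraries had r = 0.17 to 0.56, with a median of 0.223. The numbers were therefore taken to pair the samples, and a fit with the number as a block was run. Calls and misses given without mention of the block come from the fit that ignores this pairing. Nothing says that the libraries came from separate cultures, so p-values measure the spread between these libraries, which may be technical. In the degron set they do not measure the spread between lines. All 10 genes were described, and up to 3 called genes were named per list and comparison, by smallest adjusted p. The genes and lists were chosen with earlier results of these data known. A result on 1 gene is withheld and not reported here.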

Additional observations from a re-analysis of the deposited data

Results flagged for a closer look

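RRM2B was flagged because the 2 TAL1 siPools differed from each other in HEL, by a test of the difference itself. The difference, siPool 2 minus siPool 1, was -0.37 on the log2 scale (SE 0.08; edgeR adjusted p = 0.0362). In the same libraries RRM2B was lower with siPool 2 than with siPool 1 in 3 of 3 replicate numbers, by -0.25, -0.42 and -0.42. The call was lost in 6 of 9 fits that left out 1 library, and 2.76% of all genes were called between the siPools. Against the non-targeting pool RRM2B was at 0.28 with siPool 1 and at -0.09 with siPool 2, neither called in edgeR without the block, while DESeq2 called the siPool 1 change (adjusted p = 0.0287). TAL1 itself was at a like level with both siPools, 162 to 190 CPM with siPool 1 and 177 to 200 CPM with siPool 2.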

How the results depend on the processing

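No direction of a called result was reversed under any setting run. With the replicate block, the number of genes called among the 10 went up in 6 comparisons: 7 in place of 3 for the degron-specific change on day 4, 4 in place of 2 on day 0, 2 in place of 0 for both siPools together, 4 in place of 0 for siPool 1, 2 in place of 0 for siPool 2, and 2 in place of 1 between the siPools. The block changed no other call among the 10. The day 0 count of 2 became 1 with no filter on low FPKM, with parental cells as the only control, with the LMO2 control line as the only control and in edgeR on recovered reads, and 0 with degron line 1 alone. The siPool 1 count of 0 became 2 in DESeq2 and 1 with its size factors in edgeR. The LDB1 count of 1 became 3 of 9 at 1.5-fold, beside 3426 of all 12445 genes at 5 TPM or more. Leaving out 1 library gave 3 to 5 on day 4, 0 to 2 on day 0, 0 to 0 on day 1, 0 to 1 for siPool 1 and 0 to 1 between the siPools. Over all genes the block gave 5471 calls in place of 3040 on day 4, 4729 in place of 2576 on day 0, 167 in place of 12 on day 1, and 2437 in place of 338, 2888 in place of 704, 1694 in place of 176 and 2431 in place of 461 in the HEL comparisons in the order above. DESeq2 gave 789, 1186, 452 and 914 there, and no filter on low counts 716, 1084, 418 and 758. With parental cells, the LMO2 control line or degron line 1 alone the day 4 count was 1763, 1675 and 1398 and the day 1 count 0, 1 and 0; the day 0 count was 1626 with the LMO2 control line and 1197 with degron line 1. Leaving out 1 library gave 1 to 12 calls on day 1 and 104 to 570, 279 to 905, 35 to 296 and 128 to 592 in the HEL comparisons. No filter gave 40 on day 1, 23 in place of 0 in the control lines and 59 in place of 2 between the degron lines. The LDB1 count was 3426 in place of 1388 at 1.5-fold. Degron line 2 alone gave 5 on day 1. Between the degron lines the count was 1 with a pseudocount of 0.1 or in edgeR, and 4 with the block. The cause was not tested. FAS, at 0 to 4 reads per K562 library, lay below what this depth can test, and the single library per LDB1 group allows no test.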
